A study of Homo sapiens with 4 samples.

Results

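The 10 genes examined belong to the smooth muscle type contractile apparatus and were followed in SJSA-1 cells, an established human osteosarcoma line, after knockdown of the zinc finger transcription factor ZNF217. They are ACTA2 and ACTG2 (smooth muscle actins), MYL9 (myosin regulatory light chain), TPM1, TPM2 and TPM4 (tropomyosins), CALD1 (caldesmon), CNN1 and CNN2 (calponins) and TAGLN (transgelin). The genes were chosen by name, and all 10 were found among the 20024 genes of the count table. Total RNA was sequenced from 2 libraries labelled ZNF217 knockdown and 2 labelled control, all from this cell line. The knockdown reagent, the kind of control and the number of independent cultures were not stated in the labels. The p-values therefore measure only the spread between these libraries, which may be technical.

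In smooth muscle, actin and myosin filaments slide past each other, and phosphorylation of the myosin regulatory light chain by myosin light chain kinase switches the motor on. Tropomyosin lies along the actin filament, while caldesmon and calponin bind the filament and restrain the motor. Transgelin is a small actin-binding protein related to calponin. Several of these genes are targets of serum response factor (SRF), which acts with the myocardin-related coactivators MRTFA and MRTFB and binds a DNA element called the CArG box. Outside muscle, TPM4 and CNN2 are components of the ordinary cytoskeleton, and ACTA2 is a marker of myofibroblasts. The counts used here are per gene, so isoforms of a gene, such as those of TPM1, TPM2 or CALD1, were not told apart.

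The CArG box was searched in RefSeq promoter windows of GRCh38.p14, which run from 250 bases before a start site to 50 bases after it. A box was read as CC, 6 letters that are each A or T, and GG, and a box-like sequence as the same with exactly 1 of the 6 letters being C or G. The pattern reads the same on both strands. Windows were found for 8 of the 10 genes, 15 windows in all, and MYL9 and TAGLN were not among them. ACTG2, CNN2 and TPM4 had a box, ACTA2 and CALD1 had only a box-like sequence, and TPM1, TPM2 and CNN1 had neither. Of all 27305 genes with windows, 1.6% had a box and 8.46% a box-like sequence. The 4 windows below show boxes in front of genes that are abundant here (CNN2, TPM4) and nearly unread (ACTG2), and box-like sequences in front of a scarce gene (ACTA2), 5′ to 3′ on the gene's strand, with boxes and box-like sequences in capitals. They lie at chr2:73892758-73893057 (plus strand, ACTG2), chr19:1026358-1026657 (plus strand, CNN2), chr19:16067288-16067587 (plus strand, TPM4) and chr10:88952724-88953023 (minus strand, ACTA2).
ACTG2 promoter: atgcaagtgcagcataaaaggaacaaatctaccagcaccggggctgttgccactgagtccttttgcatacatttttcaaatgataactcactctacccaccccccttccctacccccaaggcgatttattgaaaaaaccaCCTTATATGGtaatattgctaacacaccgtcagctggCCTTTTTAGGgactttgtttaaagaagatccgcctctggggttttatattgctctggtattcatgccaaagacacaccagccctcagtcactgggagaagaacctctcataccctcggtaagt
CNN2 promoter: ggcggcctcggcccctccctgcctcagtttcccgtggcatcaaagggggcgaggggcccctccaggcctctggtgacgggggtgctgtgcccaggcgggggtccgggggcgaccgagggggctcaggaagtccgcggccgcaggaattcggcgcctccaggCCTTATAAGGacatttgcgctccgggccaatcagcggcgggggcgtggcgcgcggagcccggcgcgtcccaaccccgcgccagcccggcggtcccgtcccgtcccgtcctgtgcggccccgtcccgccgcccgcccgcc
TPM4 promoter: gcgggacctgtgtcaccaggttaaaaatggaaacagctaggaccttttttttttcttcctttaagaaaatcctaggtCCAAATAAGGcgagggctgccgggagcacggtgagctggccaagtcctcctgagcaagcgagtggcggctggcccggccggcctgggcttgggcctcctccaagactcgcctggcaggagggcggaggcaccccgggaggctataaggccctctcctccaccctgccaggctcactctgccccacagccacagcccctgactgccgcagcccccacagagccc
ACTA2 promoter: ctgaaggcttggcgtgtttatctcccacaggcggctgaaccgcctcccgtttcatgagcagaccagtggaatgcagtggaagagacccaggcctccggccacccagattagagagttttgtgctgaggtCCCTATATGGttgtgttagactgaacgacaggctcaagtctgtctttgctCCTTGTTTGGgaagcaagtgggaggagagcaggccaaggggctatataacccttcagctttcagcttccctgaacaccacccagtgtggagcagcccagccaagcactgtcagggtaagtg
The ACTG2 boxes begin 110 and 73 bases before the start, the CNN2 box 89 bases before it and the TPM4 box 173 bases before it. The ACTA2 box-like sequences begin 121 and 71 bases before the start. A match in these letters describes the sequence only.

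The libraries held 24428774 and 23217521 reads in knockdown cells, against 21466327 and 24487126 in control cells. Levels below are CPM, read counts scaled to library size with TMM (a correction for library composition), unless TPM, a level per length, is named. ZNF217 itself had 37.6 and 31.9 CPM in knockdown libraries and 66.2 and 73.4 CPM in control libraries, with a log2 fold change of −1.01 (SE 0.20, edgeR adjusted p = 0.207, DESeq2 adjusted p = 0.0115). The 2 knockdown libraries resembled each other more (r = 0.992 across 12965 genes on the log2 CPM scale) than the 2 controls did (r = 0.935). CDK4, which with MDM2 is amplified in this line, had 331 and 367 CPM in knockdown libraries and 349 and 184 CPM in controls. MDM2 had 46.3 and 38.9 CPM in knockdown libraries and 41.0 and 30.4 CPM in controls. Copy number was not tested here.

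The contractile genes covered a very wide range of levels. Per length, TPM2 was the most abundant, at 291 and 337 TPM in knockdown libraries against 470 and 529 TPM in controls. TPM4 followed with 198 and 183 TPM in knockdown libraries and 215 and 162 TPM in controls, then CNN2 with 132 and 140 TPM against 124 and 132 TPM. TPM1 lay at 58.9 and 56.7 TPM in knockdown libraries and 88.0 and 38.5 TPM in controls, and the ranges of TPM4, CNN2 and TPM1 did not overlap with each other in either group. CALD1 was measured at 11.5 and 9.48 TPM in knockdown libraries and at 10.2 and 10.7 TPM in controls. In knockdown cells its range touched that of ACTA2, so the order of these neighbours there was not set beyond their spread. TAGLN had 1.78 and 1.25 TPM in knockdown libraries and 1.67 and 1.93 TPM in controls, and CNN1 had 0.456 and 0.560 TPM against 0.659 and 1.84 TPM. In knockdown cells both lay below ACTA2, while in controls the ranges of ACTA2 (1.52 and 5.76 TPM), TAGLN and CNN1 overlapped. ACTG2 and MYL9 were nearly unread. TPM2 and TPM4 together made up 69.5% and 70.5% of the summed TPM of the 10 genes in knockdown libraries, and 75.2% and 78.3% in controls. The TPM values depend on the deposited gene lengths, which were 3248 bases for TPM2, 8632 for TPM4 and 13765 for TPM1. In CPM, which is not divided by length, TPM4 lay above TPM2 in knockdown libraries (means 506 and 315). In controls their ranges overlapped (means 527 and 535).

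**Figure D1:**
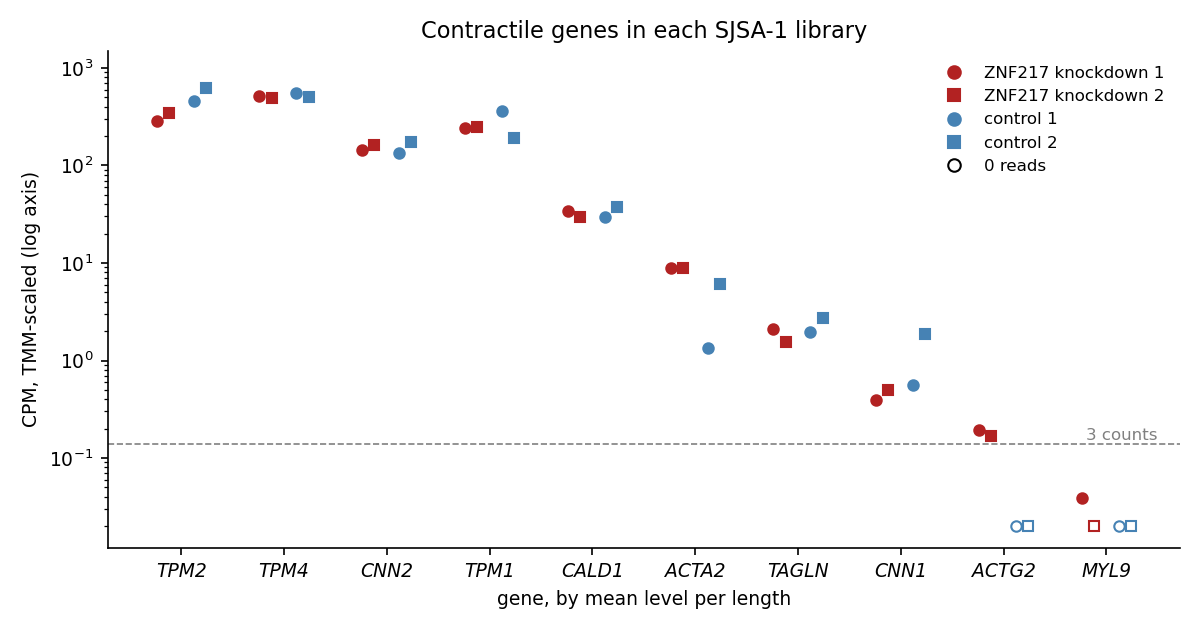
CPM of each contractile gene in each library on a log axis, with the 2 ZNF217 knockdown libraries (red) left of the 2 controls (blue) and circles and squares for replicates 1 and 2. Open symbols at the bottom mark 0 reads, and the dashed line marks 3 counts; TPM2 lies lower and ACTA2 higher in both knockdown libraries, and ACTG2 and MYL9 lie near or under the line.

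Of the 10 genes, 8 passed the low-count filter and were tested, ACTG2 and MYL9 not. edgeR's quasi-likelihood test called none of the 8 at an adjusted p under 0.05, and it called 0% of the 12965 genes tested. At an unadjusted p under 0.05 it held 1 of the 8, TPM2, where 1690 genes (13%) did so over the whole table. DESeq2 called none of the 8, where it called 3.8% of 13062 genes. Both knockdown libraries lay above both controls for 1 of the 8 (ACTA2), where 25.4% of all genes did, and below both for 2 (TPM2 and CNN1), where 22.9% did. The other 5 overlapped between groups. The median log2 fold change of the 8 was −0.13, against −0.01 over all genes tested. In all 8 genes the controls differed from each other by more than the knockdown libraries did. The share of all genes that did so was not computed. Across all 12965 genes the controls were also less alike (r = 0.935) than the knockdown libraries (r = 0.992), so this difference was not confined to the contractile genes. Whether it was more frequent among them was not tested.

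Among the tropomyosins, TPM2 (chr9:35681992-35690121, minus strand of GRCh38) had the lower level in knockdown cells. TPM2 had 286 and 344 CPM in knockdown libraries and 453 and 618 CPM in controls, with means of 315 ± 41.5 and 535 ± 117 CPM (SD, n = 2 each). The groups did not overlap, and its log2 fold change was −0.77 (SE 0.22, edgeR adjusted p = 0.29, DESeq2 adjusted p = 0.138). TPM4 had 516 and 496 CPM in knockdown libraries against 550 and 504 CPM in controls, a log2 fold change of −0.06 (SE 0.16, edgeR adjusted p = 0.902). TPM1 had 245 and 246 CPM in knockdown libraries, which lay between the controls at 359 and 191 CPM. Its log2 fold change was −0.16 (SE 0.32, edgeR adjusted p = 0.855), and against control 2 alone it was 0.35. Of TPM4's 50-base sequences, 7.14% also occur in transcripts of other genes, so part of its reads may not be its own, and TPM1 shares 2070 exon bases with the antisense gene TPM1-AS, whose reads cannot be told apart where strand was not counted.

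The family composition gives the same genes relative to each other. TPM2 made up 36.0% and 41.5% of the tropomyosin TPM in knockdown libraries and 44.9% and 57.1% in controls. The difference of group means was −12.3 percentage points, and an exact two-sided permutation test gave p = 0.333, the smallest p that 2 against 2 allows. TPM4 took 24.5% and 22.5% in knockdown libraries and 20.5% and 17.5% in controls, and TPM3, a tropomyosin of most cells, took 32.3% and 29.02% against 26.1% and 21.2%. The TPM2 share was thus lower and the TPM4 and TPM3 shares higher in both knockdown libraries, while the TPM1 shares overlapped (exact permutation p = 1). A lower share of 1 gene raises the shares of the rest, so the higher shares are not separate results. By CPM, TPM3 and TPM4 had edgeR log2 fold changes of 0.01 and −0.06. The size of a share depends on the deposited gene length, 3248 bases for TPM2 and 15156 for TPM3. In CPM, TPM3 (means 1160 in knockdown libraries and 1150 in controls) lay above TPM2 (315 and 535). In all, 9 shares were tested, none of which can pass a threshold of 0.05 in this design.

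**Figure D2:**
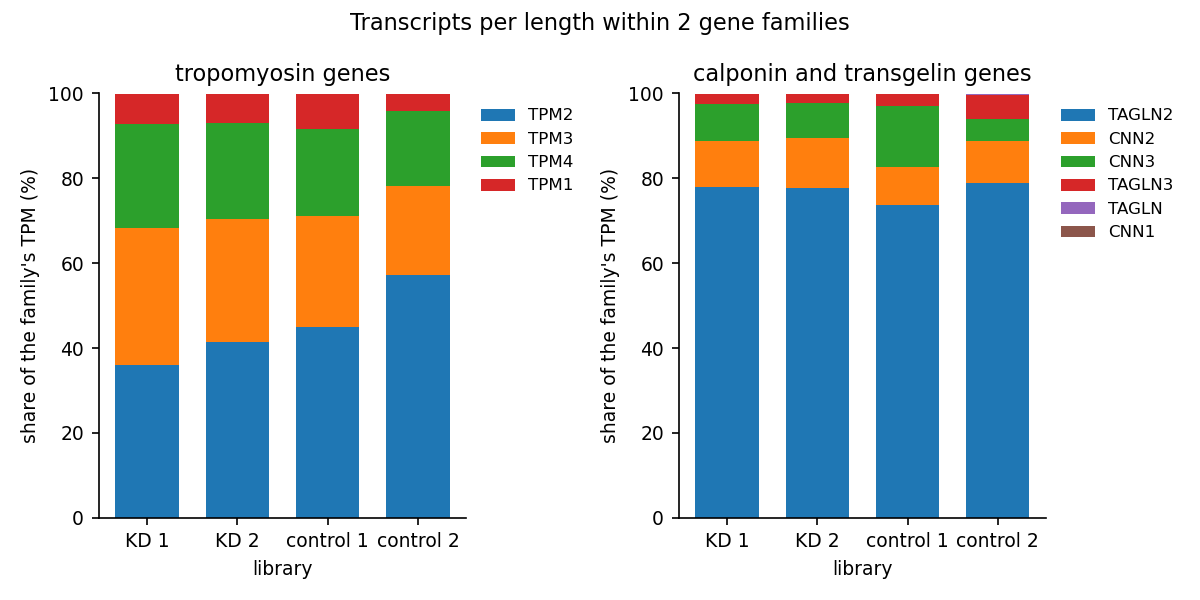
Share of each gene in the summed TPM of the tropomyosin genes (left) and of the calponin and transgelin genes (right), with each bar 1 library and the knockdown libraries left of the controls. TPM2 holds 36.0% and 41.5% in the knockdown libraries and 44.9% and 57.1% in the controls, and TAGLN2 dominates the other family in all 4.

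ACTA2, the smooth muscle alpha actin, had the highest edgeR log2 fold change of the 8 tested contractile genes. It had 8.98 and 8.84 CPM in knockdown libraries and 1.34 and 6.16 CPM in controls (means 8.91 ± 0.0974 and 3.75 ± 3.41 CPM, SD, n = 2 each). The knockdown libraries lay above both controls, and the log2 fold change was 1.25 (SE 0.71, edgeR adjusted p = 0.511, DESeq2 adjusted p = 0.419). Against control 1 alone it was 2.73, and against control 2 alone 0.52. ACTA2 lies at chr10:88935074-88991339 on the minus strand of GRCh38. Its exons share 380 bases with those of FAS and 516 with those of the antisense gene ACTA2-AS1, both on the other strand. ACTA2-AS1 was not among the counted genes. The gene STAMBPL1 overlaps the ACTA2 span but not the ACTA2 exons. FAS had 12.2 and 9.59 CPM in knockdown libraries and 3.61 and 7.94 CPM in controls, so it too lay higher in both knockdown libraries (log2 fold change 0.92, edgeR adjusted p = 0.469). STAMBPL1 had 57.5 and 57.5 CPM in knockdown libraries and 17.5 and 26.3 CPM in controls, with a log2 fold change of 1.39 (edgeR adjusted p = 0.193, DESeq2 adjusted p = 0.00205). Whether these genes account for any of the ACTA2 reads was not tested.

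ACTG2, the smooth muscle gamma actin, had 5 and 4 reads in knockdown libraries and 0 and 0 in controls. Its knockdown mean of 0.181 CPM was 1.30-fold the level that 3 counts per library allow in a control (0.139 CPM). The counting error of the 5 and 4 knockdown reads was left out, so this ratio is no lower limit. DESeq2 gave ACTG2 an unadjusted p of 0.171. MYL9, the regulatory light chain of smooth muscle, had 1 and 0 reads in knockdown libraries and 0 and 0 in controls, so no comparison was possible. The cytoplasmic relatives filled both places. ACTB and ACTG1 together supplied nearly all actin TPM, with ACTB at 57% and 56.3% in knockdown libraries and 52.6% and 65.0% in controls. MYL12B, the nonmuscle regulatory light chain, took 71.2% and 73.5% of its family's TPM in knockdown libraries and 74.4% and 74.6% in controls, and MYL12A the rest.

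Among the filament-binding genes, CNN1, the calponin of differentiated smooth muscle, was scarce. It had 10 and 12 reads in knockdown libraries and 12 and 42 in controls, with a log2 fold change of −1.44 (SE 0.74, edgeR adjusted p = 0.478). The groups did not overlap in CPM, at 0.390 and 0.5004 in knockdown libraries against 0.555 and 1.87 in controls, but 1 control set the size, and against control 1 alone the log2 fold change was −0.32. CNN2, the broadly expressed calponin, had 145 and 160 CPM in knockdown libraries and 134 and 173 CPM in controls. CALD1 had 34.1 and 29.4 CPM in knockdown libraries and 29.7 and 37.9 CPM in controls. TAGLN had 2.11 and 1.54 CPM in knockdown libraries and 1.94 and 2.72 CPM in controls, and 446 of its exon bases overlap PCSK7. These 3 overlapped between groups, with log2 fold changes of −0.01 (SE 0.20), −0.09 (SE 0.23) and −0.35 (SE 0.45) and edgeR adjusted p of 0.989, 0.893 and 0.766. CNN2 was read as 11.4 ± 0.752% of its family's TPM in knockdown libraries and 9.54 ± 0.635% in controls (SD, n = 2 each; exact permutation p = 0.333), while TAGLN2, a transgelin of non-muscle cells, took 77.9% and 77.7% in knockdown libraries and 73.7% and 78.8% in controls.

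**Figure D3:**
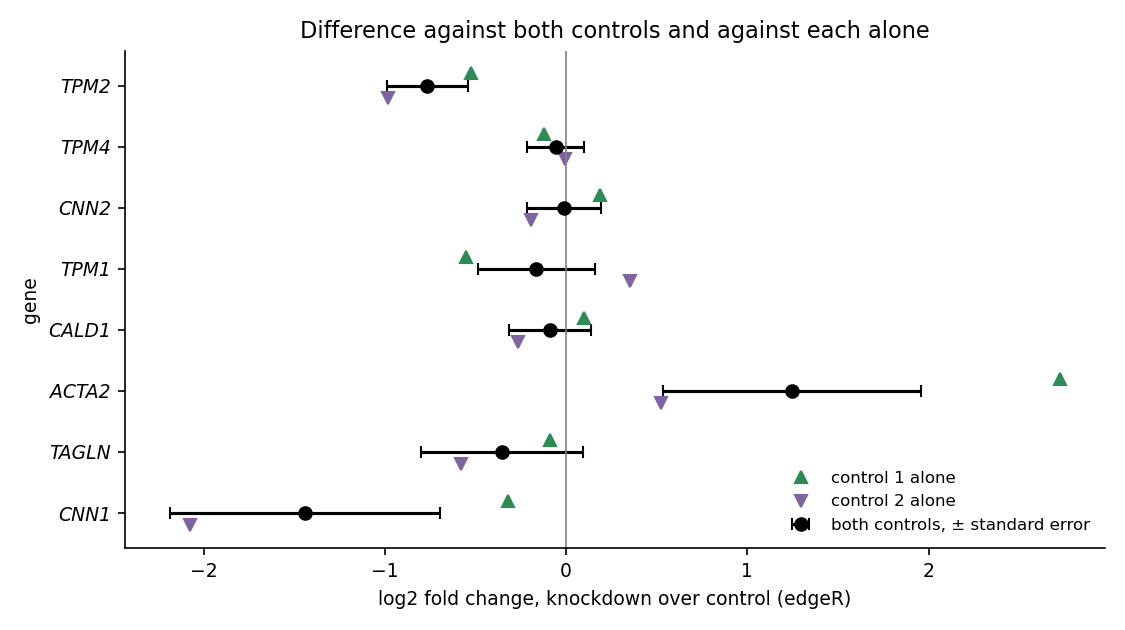
edgeR log2 fold change (knockdown over control) of the 8 tested contractile genes, as the value against both controls with its standard error (black) and the values against control 1 alone and control 2 alone (triangles). TPM1 lies at −0.55 against control 1 and 0.35 against control 2, and ACTA2 at 2.73 and 0.52.

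With 1 control left out, the fit takes its spread from the knockdown pair alone, and the remaining control is assumed to vary as that pair does. Such fits called 34.6% of all genes tested against control 1 alone and 55.9% against control 2 alone, so the 3 and 4 calls among the 8 contractile genes are near that background. TPM2 was called lower against each control alone, at −0.53 (edgeR adjusted p = 8.22e-06) and −0.98 (edgeR adjusted p = 4.91e-17). ACTA2 was called higher against each, at 2.73 (edgeR adjusted p = 5.97e-18) and 0.52 (edgeR adjusted p = 0.0402). TPM1 was called lower against control 1 alone (edgeR adjusted p = 3.94e-06) and higher against control 2 alone (edgeR adjusted p = 0.00764). CNN1 was called lower against control 2 alone, at −2.08 (edgeR adjusted p = 0.000446). Without a knockdown library, none of the 8 was called.

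The markers of mature smooth muscle were mixed. MYH11, the smooth muscle myosin heavy chain, had 2 and 6 reads in knockdown libraries and 0 and 0 in controls, and DES, LMOD1, MYOCD and KCNMB1 had between 0 and 4 reads per library. Of the 12 markers, 7 were tested, with 1 higher and 2 lower in both knockdown libraries, near the 25.4% and 22.9% of all genes tested that did so. SMTN, smoothelin, had 40.7 and 46.7 CPM in knockdown libraries and 120 and 199 CPM in controls, a log2 fold change of −1.87 (SE 0.30, edgeR adjusted p = 0.16, DESeq2 adjusted p = 8.41e-06). FHL1, a LIM-domain protein, had 101 and 91.4 CPM in knockdown libraries and 128 and 173 CPM in controls (log2 fold change −0.65, edgeR adjusted p = 0.337). SYNPO2, the marker higher in both knockdown libraries, had 15 and 16 reads there and 5 and 0 in controls. CSRP1, CSRP2, NEXN and PDLIM3 overlapped between groups. CSRP1 had 234 and 234 CPM in knockdown libraries and 256 and 167 CPM in controls. So transcripts of smooth muscle myosin heavy chain and myocardin were almost absent, while other markers of the list were present. KRT8 and KRT18, keratins, were abundant in all 4 libraries, while CDH1 and EPCAM, epithelial markers, were near 0. The summed level of the 4 endothelial and of the 8 striated muscle markers was under 1 CPM in each library. Of the blood markers LCP1, also an actin bundler of tumour cells, alone was tested, with 6.95 and 5.75 CPM in knockdown libraries and 2.17 and 2.63 CPM in controls, and PTPRC had at most 2 reads in a library. Among 5 tested pericyte markers 2 lay higher and 2 lower in both knockdown libraries, where 25.4% and 22.9% of all genes did, and their median log2 fold change was 0.54. The higher ones were KCNJ8, a potassium channel subunit, with 2.89 and 2.71 CPM in knockdown libraries and 1.94 and 1.56 CPM in controls, and RGS5, with 2.38 and 2.21 CPM against 2.17 and 0.982 CPM. CSPG4, a proteoglycan, had 48.0 and 41.3 CPM in knockdown libraries and 85.8 and 168 CPM in controls (DESeq2 adjusted p = 0.00404), and NOTCH3 had 1.25 and 1.21 CPM against 1.80 and 12.7 CPM. Of 7 osteoblast markers 3 were tested, with 1 higher and 0 lower in both knockdown libraries, where 25.4% and 22.9% of all genes did so. SPP1, osteopontin, had 126 and 133 CPM in knockdown libraries and 14.6 and 8.30 CPM in controls (log2 fold change 3.50, edgeR adjusted p = 0.127, DESeq2 adjusted p = 1.24e-19). RUNX2 had 16.5 and 16.5 CPM against 11.2 and 17.4 CPM, and COL1A1 8.43 and 9.05 CPM against 3.51 and 17.1 CPM, both overlapping. SP7, ALPL, BGLAP and IBSP had between 0 and 6 reads per library. In bulk RNA, fewer cells of a type and less RNA per cell cannot be told apart, and the part of these genes in the contractile values was not tested.

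The SRF pathway was read beside the genes. SRF had 71.8 and 69.7 CPM in knockdown libraries and 61.8 and 58.9 CPM in controls (log2 fold change 0.23, SE 0.17, edgeR adjusted p = 0.607). MRTFA had 23.0 and 22.5 CPM in knockdown libraries against 18.6 and 28.5 CPM in controls, and MRTFB 11.2 and 8.13 CPM against 12.5 and 7.14 CPM. The mRNA of these coactivators overlapped between groups, and MYOCD, myocardin, had 0 reads in both knockdown libraries and 2 and 0 in controls. ELK3, a ternary complex factor, had 56.0 and 51.6 CPM in knockdown libraries and 86.8 and 109 CPM in controls (log2 fold change −0.87, edgeR adjusted p = 0.238, DESeq2 adjusted p = 0.048). Of 19 tested cytoskeletal targets of SRF and MRTF, 3 lay higher and 9 lower in both knockdown libraries, where 25.4% and 22.9% of all genes tested did (median log2 fold change −0.42, against −0.01 over all genes). edgeR called none, and DESeq2 called 2 lower, where it called 3.8% of all genes in either direction. Those 2 were CCN1 and CCN2, which encode matricellular rather than cytoskeletal proteins. CCN1, a matricellular protein, had 114 and 122 CPM in knockdown libraries and 250 and 373 CPM in controls (log2 fold change −1.40, edgeR adjusted p = 0.177, DESeq2 adjusted p = 0.000427), and ZYX, zyxin, had 96.2 and 104 CPM against 153 and 148 CPM (log2 fold change −0.59, edgeR adjusted p = 0.288). Of 10 immediate early targets, 3 lay lower and none higher in both knockdown libraries, where 22.9% and 25.4% of all genes did, and control 2 exceeded control 1 by a median of 2.32 on the log2 scale. FOS, for example, had 21.2 and 27.7 CPM in knockdown libraries and 21.4 and 725 CPM in controls, and NR4A1 had 11.0 and 12.9 CPM against 18.8 and 32.6 CPM. The part of this difference between the controls in the other results was not tested.

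Of 7 tested genes of filament ends, 3 lay lower and none higher, where 22.9% and 25.4% of all genes tested did (median −0.18), with CAPZA1 at 183 and 161 CPM in knockdown libraries and 261 and 192 CPM in controls and CAPZB, its partner subunit in the capping protein, at 177 and 164 CPM against 191 and 246 CPM. The 10 tested paralogs of the contractile genes had a median of −0.12, with 3 lower and none higher in both knockdown libraries, against the same shares of all genes. Among them TAGLN3 had 13.7 and 13.1 CPM in knockdown libraries and 19.8 and 46.7 CPM in controls (log2 fold change −1.31, edgeR adjusted p = 0.334).

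**Figure D4:**
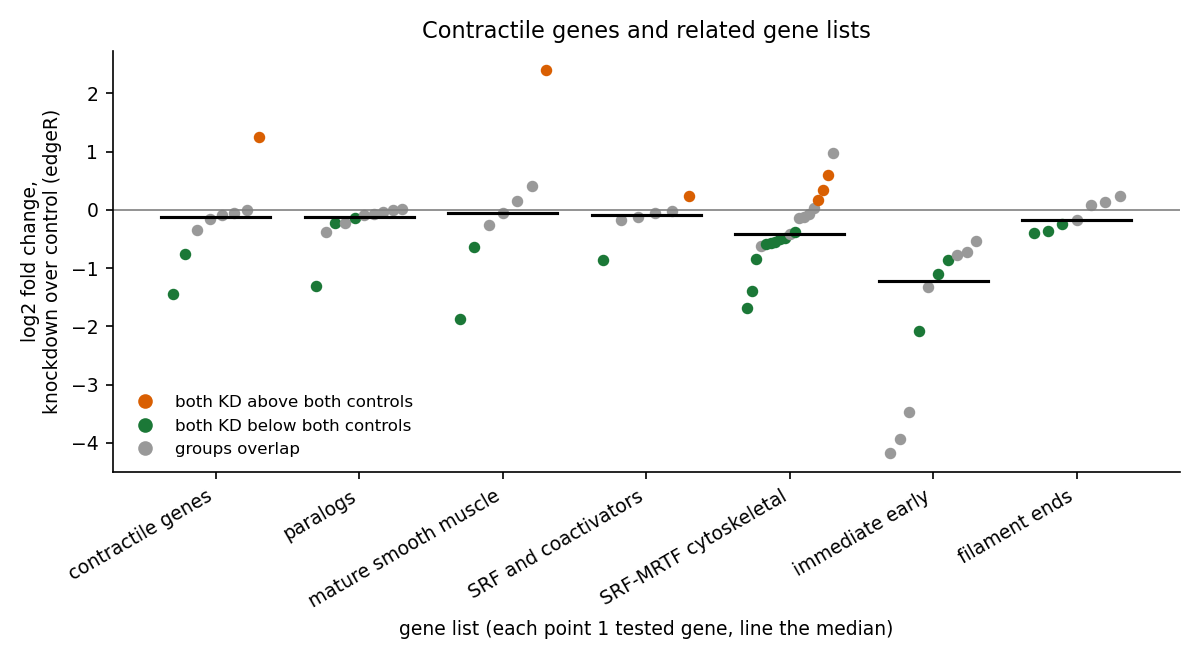
edgeR log2 fold change (knockdown over control) of every tested gene of the contractile set and of 6 related gene lists, with the black line at each median and colours showing whether both knockdown libraries lay above or below both controls. The contractile median is −0.13, against −0.42 for SRF-MRTF cytoskeletal targets and −0.12 for the paralogs.

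The 5 genes whose profile over the 4 libraries was nearest to the mean profile of the 8 tested contractile genes (Euclidean distance of centred log2 CPM, 9633 candidates) were PPP1R7, TRAF4, OST4, PRXL2C and WDR83, at distances of 0.0181 to 0.0326. This mean profile was highest in control 2 and lowest in control 1. Not every gene followed it: 6 of the 8 were higher in control 2 than in control 1, and TPM1 and TPM4 were lower. The median profile was also highest in control 2 but lowest in knockdown 2 (−0.103, against −0.101 in control 1). The likeness was computed over 4 libraries only.

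The authors' deposited table gives control over knockdown, so a positive log2 value means a lower level in knockdown. In the authors' deposited table TPM2 had 1.27 (adjusted p = 0.0426) and ACTA2 −1.39 (adjusted p = 0.122), the same directions as from the counts. That table put 240 genes under an adjusted p of 0.05. ZNF217 itself was not among them, at 0.563 (adjusted p = 0.622 in the authors' DESeq2 output). TPM4, CALD1 and TAGLN had −0.22, −0.31 and −0.43 in the authors' deposited table, which is higher in knockdown. For these genes edgeR on the counts gave −0.06, −0.09 and −0.35, lower in knockdown. So 3 of the 8 tested genes differed in direction. Of 12960 tested genes compared, only 60.5% had the same direction in that table and in DESeq2 on the 4 libraries. Neither the shared nor the differing directions are therefore particular to the contractile genes. The libraries behind that table are not stated. A mean above 0 was given in the authors' deposited table for 765 of the 3470 genes with 0 reads in all 4 libraries.

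**Figure D5:**
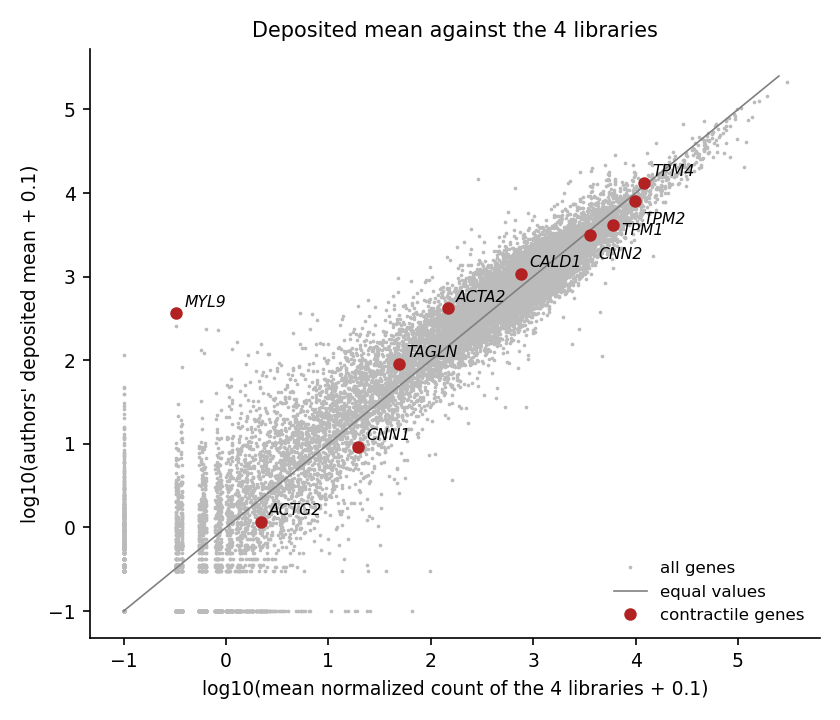
Mean normalized count of each gene in the authors' deposited table against its mean over the 4 libraries, both as log10 of the value plus 0.1, with the contractile genes in red and the grey line marking equal values. MYL9 stands far above the line, with a deposited mean of 363 beside 0.225 over the 4 libraries.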

How the data were processed

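RNA was measured in 4 libraries. The submitters' processing notes name GRCh38 with DESeq2, Subread, HISAT2 and Trimmomatic; their versions, the annotation and the strand setting were not stated there. The deposited counts are unnormalized whole reads. The deposited signal per length sums to 10 times a TPM column and was divided by 10; the authors' mean normalized count per gene is another deposited signal. The deposited log2 fold changes (control over knockdown) and p-values are the authors' DESeq2 output, per the file headers.

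The counts were fitted with edgeR 4.0.16 in R 4.3.3 (quasi-likelihood test, TMM scaling, no covariate) after the default low-count filter (minimum count 10, minimum total 15), with Benjamini-Hochberg adjustment over 12965 genes and a threshold of 0.05. Standard errors are the absolute log2 fold change over the square root of F. DESeq2 1.42.0 and limma 3.58.1 were alternatives, and all were tested on simulated data. The simulated counts had the same spread in both groups, so that test does not cover controls that differ more than the knockdown libraries. Totals were 21466327 to 24487126 reads; 0 reads allow up to 3 counts, 0.117 to 0.139 CPM, for counting error only. Same-numbered libraries did not deviate together (r = −0.03), so the numbers were not used as pairs. Gene positions and exons came from GENCODE 29, promoter sequences from RefSeq.

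The contractile genes and the gene lists were chosen with earlier results of these data known. Named were ZNF217, the contractile genes, their paralogs, SRF and its coactivators. Also named were the 2 genes of smallest p in other lists and the 5 nearest profiles. KCNJ8, RGS5, STAMBPL1, FAS, PCSK7 and the near-zero markers were named after their values were seen. The same holds for SYNPO2, CSRP1, CSRP2, NEXN, PDLIM3, COL1A1 and CCN2. The results of 2 lists are not reported here.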

Additional observations from a re-analysis of the deposited data

Results flagged for a closer look

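The authors' deposited table, which entered no test here, lists MYL9 with a mean normalized count of 362.64, while the 4 libraries held 1 read of it in all (mean normalized count 0.225). Which libraries gave that mean is not stated. MYL9 is 1 of 7 genes with at most 3 reads in all and a mean above 100 in the authors' deposited table. The authors' deposited table called 240 genes and DESeq2 on the 4 libraries 497, of which 78 were shared.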

How the results depend on the processing

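edgeR called 0 genes higher and 0 lower. Without the low-count filter it called 16 and 3, DESeq2 called 230 and 267, and with the replicate block edgeR called 160 higher and 124 lower. With 1 library left out, 12 to 3710 were called higher and 3 to 3729 lower, the most without control 1. Of the contractile genes, 0 to 2 were then called higher and 0 to 2 lower. The contractile genes lying higher in both knockdown libraries numbered 2 without the filter, and 1 to 2 with a library left out; those lying lower numbered 1 with at least 1 CPM in all libraries, and 2 to 5 with a library left out. The tests that give no other levels (DESeq2, limma, the block) leave these counts as they are.

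Some small differences changed direction. On total counts, which moved the median of all genes to 0.11, TPM4 was at 0.0532, CALD1 at 0.0336 and CNN2 at 0.113. On log2 of TPM plus 1 they were at 0.0253, 4.60e-05 and 0.0830. CNN2 was at 0.0014 with upper quartile factors and at 0.00060 with the replicate block. With a library left out, TPM1 ranged from −0.55 to 0.35, CALD1 from −0.27 to 0.10 and CNN2 from −0.19 to 0.19; the difference in family share ranged from −1.28 to 2.97 percentage points for TPM1 and from −0.0278 to 0.0124 for TAGLN. The cause was not tested. The median of the contractile genes stayed below 0, between −0.23 and −0.02. Low read counts limit CNN1, ACTG2 and MYL9.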
